A study of Mus musculus with 14 samples.

Results

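The interleukin-1 (IL-1) family was followed in whole colons of 14 female C57BL/6 mice aged 4 to 6 months, each on an array of its own. The members are 10 genes, Il1a, Il1b, Il1rn, Il1r1, Il1r2, Il1rap, Il18, Il18bp, Il33 and Il1rl1, out of 19096 gene symbols that the array could be matched to. They are read by 19 probes out of 41174, taken by the accession that the array gives each probe, and 17 of the 19 were tested. The set was chosen on measured values to some degree, because earlier results of these arrays had already shown Il1b higher in the knockout on DSS and Il1rn with a large difference in DSS response between genotypes. For this reason Il1b is described without a test throughout. Il1rn is described without a test for its DSS change in either genotype and wherever the genotypes on DSS or their DSS responses are compared. Counts of called members that include these genes are descriptions.

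Every mouse carried loxP-flanked alleles of Nr3c1, the gene of the glucocorticoid receptor (GR). Flox mice (GR fl/fl) had no further change and served as controls, and in GR iKO mice these alleles were crossed with Villin-cre, which deletes the receptor in the intestinal epithelium and leaves it in the other cells of the colon. Mice of each genotype drank regular water (4 Flox control and 4 GR iKO control) or water with 2.5% dextran sulfate sodium (DSS), an agent that injures the colonic epithelium, for 7 days (3 Flox DSS and 3 GR iKO DSS). In whole colon, more cells of a type and more RNA per cell cannot be told apart. A level below is a log2 signal relative to the 75th percentile of the same array, so levels compare mice for 1 probe and not probes with each other.

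IL-1α and IL-1β, the products of Il1a and Il1b, are ligands of the type 1 receptor encoded by Il1r1, which signals together with the accessory protein encoded by Il1rap. IL-1α acts as an alarm signal of damaged cells, and IL-1β is made as a precursor, mainly by activated myeloid cells, and is cleaved in inflammasomes. Il1rn encodes the receptor antagonist and Il1r2 a decoy receptor, so both restrain the pathway. IL-18, made largely by epithelium in the gut, is held in check by the IL-18 binding protein encoded by Il18bp. IL-33 is a nuclear alarm signal of stromal and epithelial cells, and Il1rl1 encodes its receptor ST2, in a membrane and a soluble form. In colitis these cytokines are known both for driving inflammation and for aiding repair of the mucosa.

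Several of these genes lie side by side. Among protein-coding genes of RefSeq assembly GRCm38.p6, Il1r2, Il1r1, Il1rl2, Il1rl1, Il18r1 and Il18rap form a run of 6 on chromosome 1. On chromosome 2, Il1a and Il1b are direct neighbours, and Il1rn ends a run of 6 that otherwise holds the IL-36 genes and Il1f10. Il1rap, Il18, Il18bp and Il33 stand alone on chromosomes 16, 9, 7 and 19. The 250 bases before the start sites of Il1a and Il1b, the neighbouring ligand genes of the type 1 receptor, and before the first of 3 annotated start sites of Il1rn, the gene of its antagonist, are printed here 5′ to 3′ on the gene's strand, from RefSeq GRCm38.p6, chr2:129309973-129310222 (minus strand), chr2:129371140-129371389 (minus strand) and chr2:24336610-24336859 (plus strand). Capitals mark the TATA box letters TATAAA and the AP-1 letters TGANTCA.
Il1a: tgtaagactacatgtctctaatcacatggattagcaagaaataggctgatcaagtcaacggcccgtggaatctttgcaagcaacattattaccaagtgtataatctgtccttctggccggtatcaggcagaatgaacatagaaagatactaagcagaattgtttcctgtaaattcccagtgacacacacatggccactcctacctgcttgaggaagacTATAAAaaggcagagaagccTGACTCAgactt
Il1b: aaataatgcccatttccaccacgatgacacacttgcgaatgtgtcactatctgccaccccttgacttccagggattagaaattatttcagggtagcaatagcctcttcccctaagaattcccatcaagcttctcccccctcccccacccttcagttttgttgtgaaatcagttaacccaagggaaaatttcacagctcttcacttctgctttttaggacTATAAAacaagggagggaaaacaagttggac
Il1rn: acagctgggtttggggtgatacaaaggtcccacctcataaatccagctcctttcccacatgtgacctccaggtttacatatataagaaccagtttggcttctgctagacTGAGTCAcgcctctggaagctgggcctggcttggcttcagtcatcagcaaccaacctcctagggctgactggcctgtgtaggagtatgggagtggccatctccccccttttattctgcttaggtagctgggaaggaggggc
Il1a and Il1b carried TATAAA at nearly the same place, at bases -32 to -27 and -31 to -26 from the start site, and Il1rn did not carry it in this window. AP-1 letters stood at -12 to -6 in Il1a and at -141 to -135 in Il1rn. TATAAA was also found in the windows of Il18 and of both start sites of Il33. On either strand, 12.4% of 32851 promoter windows of this length held TATAAA and 6.75% held the AP-1 letters. The C/EBP letters TTNNGNAAT, which 10.2% of windows held, occurred in windows of Il1b, Il1rn, Il1r1 and Il1rl1, and the NF-kB consensus, which 3.90% held, in the second window of Il1r1, where it overlapped C/EBP letters. No member window held the full palindrome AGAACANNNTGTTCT of a glucocorticoid response element, which 3 of all windows held. These matches describe letters and not binding.

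The arrays could bear such comparisons within limits. An array's 75th percentile of intensity was between 262 and 1003 units, with signals well above background for 62.6% to 71.2% of probes. Both lowest values belonged to Flox DSS replicate 4, and the part of this in its levels below was not tested. Replicates spread more on DSS, where the SD of the median probe was 0.26 (Flox) and 0.34 (GR iKO) on the log2 scale, against 0.18 and 0.17 on water, so DSS arrays were given less weight in the fit. As a check of the labels, Nr3c1 (the brightest of its tested probes) was at 57.3% of the Flox signal in GR iKO colons on water (limma, adjusted p = 0.00923) and at 56.1% on DSS (adjusted p = 0.0906), with no overlap between genotypes under either condition. The epithelial markers Epcam, Krt8, Krt18, Krt20, Cdh1, Vil1, Car1 and Slc26a3 were well above background on all 14 arrays. Each group had its own position on the slides, so position and group cannot be told apart, and no source says whether mice shared a cage or litter. Scaling instead by 8 spike-in transcripts moved the median of all probes in the DSS comparison from -0.09 to -2.45 in Flox and from -0.02 to -0.98 in GR iKO colons. In the genotype comparison on DSS the median moved from 0.03 to 1.25.

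On regular water, the question of whether loss of epithelial GR alone alters these genes gave small differences. None of the 10 members differed between genotypes at an adjusted p under 0.05 (limma), and none had an unadjusted p under 0.05. Over all 29523 probes 0.0237% were called, 0.0169% higher and 0.00677% lower, and 979 had an unadjusted p under 0.05. The arrays of the genotypes overlapped for all 10 members, whereas 1.27% of all probes lay wholly higher and 0.989% wholly lower in GR iKO colons. The differences ran from -0.35 for Il1r2 (95% interval -1.12 to 0.43) to 0.07 for Il18bp (-0.29 to 0.43), and for Il33 the interval was -0.40 to 0.37. The median difference was -0.02 over the members and -0.01 over all probes.

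DSS raised most of the family in both genotypes on the 75th percentile scale, but in Flox colons this direction depended on the scaling. In Flox colons 7 of the 10 members were higher on DSS than on water and 1, Il18, was lower at an adjusted p under 0.05, beside 47.2% of all probes called, 21.8% higher and 25.4% lower. Under the spike-in scaling 2 members, Il1b and Il33, were called higher and 4, Il18, Il1r1, Il1rap and Il1rn, lower in Flox colons, with 213 of all probes called higher and 25166 lower. The median change of the members on the 75th percentile scale was 2.48 on the log2 scale, and that of all probes was -0.09. In GR iKO colons 8 of 10 were called higher and none lower, beside 38.9% of all probes, 19.1% higher and 19.8% lower, with a median of 4.05 for the members and -0.02 for all probes. There the spike-in scaling called 7 members higher and 2, Il18 and Il1rap, lower, with 737 of all probes higher and 12709 lower. Arrays on DSS and on water did not overlap for 7 higher members and 1 lower, Il1rap, in Flox colons, where 25.8% and 31.5% of all probes did so, and for 8 higher members in GR iKO colons, where 22.6% of all probes lay wholly higher and 23.7% wholly lower. These counts and medians include Il1a, Il1b and Il1rn and are read as a description.

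**Figure D1:**
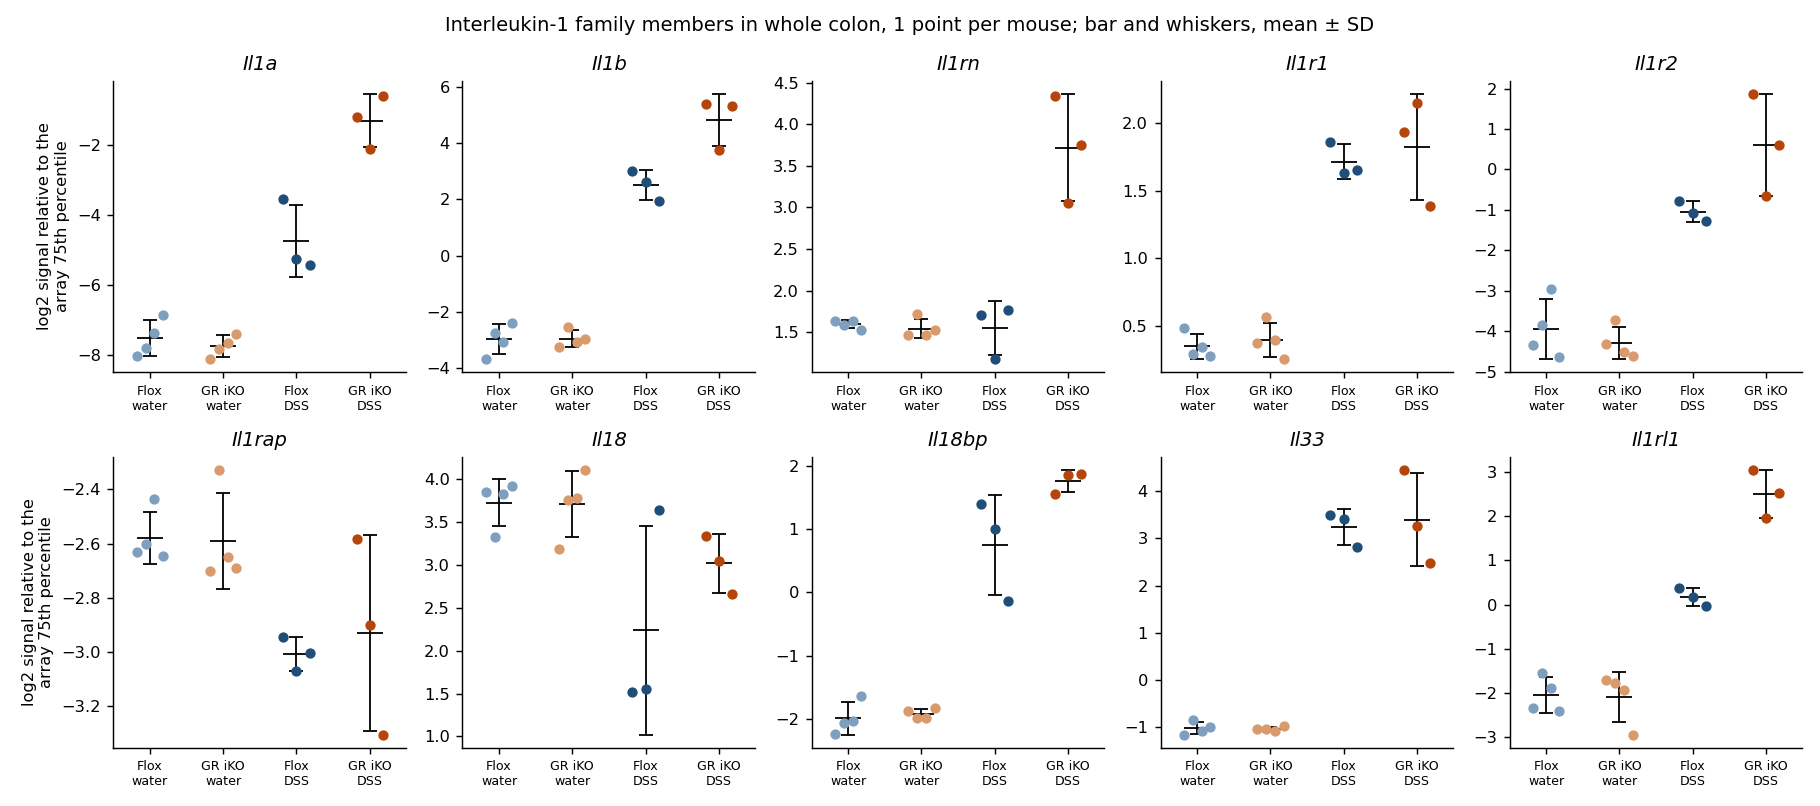
Level of each member (vertical axis, log2 signal over the array's 75th percentile, 1 panel per gene with its own scale) in Flox and GR iKO mice on water (n = 4 each) and on DSS (n = 3 each), with points for mice and bars for mean ± SD. Il1rn stayed between 1.18 and 1.77 in all Flox mice and GR iKO mice on water and was between 3.06 and 4.34 in GR iKO mice on DSS, while Il33 was between 2.48 and 4.44 on DSS in both genotypes.

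Among the ligands, Il1b (probe A_51_P212782, printed on 10 spots) had levels of -3.66, -2.74, -3.07 and -2.39 in the Flox mice on water and of 3.00, 2.62 and 1.94 on DSS. In GR iKO mice it was at -3.23, -2.54, -3.05 and -2.96 on water and at 5.37, 3.75 and 5.31 on DSS. Every DSS mouse thus lay above every water mouse, and every GR iKO mouse on DSS lay above every Flox mouse on DSS. The change with DSS was 5.49 (SE 0.46), or 44.9-fold, in Flox colons and 7.76 (SE 0.46), or 216-fold, in GR iKO colons. Within the slides that held both conditions the Flox change ran from 4.33 to 6.66 and the GR iKO change from 6.80 to 8.61, and the spike-in scaling gave 3.13 in Flox colons.

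Il1a (probe A_52_P100926) was not well above background in any mouse on water, with values between -8.12 and -6.88 there. On DSS it was at -3.56, -5.26 and -5.42 in Flox mice, 2 of which were well above background, and at -1.21, -2.11 and -0.60 in GR iKO mice, all well above background. With the water side taken at the lowest measurable signal, Il1a was at least 2.40-fold higher on DSS in Flox colons (limma, adjusted p = 0.000633) and at least 23.3-fold higher in GR iKO colons (adjusted p = 5.02e-06). A second probe gave bounds of 1.90-fold and 12.8-fold, and under the spike-in scaling the Flox change fell to 0.42.

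Il33 (probe A_51_P122321), the alarm signal of stroma and epithelium, rose in both genotypes. Its levels were -1.15, -0.85, -1.08 and -0.99 in Flox mice on water and 3.50, 3.40 and 2.81 on DSS, and -1.03, -1.04, -1.08 and -0.97 in GR iKO mice on water and 4.44, 3.26 and 2.48 on DSS. All DSS mice were far above all water mice, and the genotypes overlapped on DSS. The change was 4.25 (SE 0.30), or 19.1-fold, in Flox colons (limma, adjusted p = 2.37e-06) and 4.43 (SE 0.30), or 21.5-fold, in GR iKO colons (adjusted p = 2.30e-06). The Flox change was 1.89, and still called, under the spike-in scaling.

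Il18 (probe A_51_P153565, printed on 10 spots) moved the other way. It was at 3.85, 3.32, 3.82 and 3.92 in Flox mice on water and at 1.52, 1.55 and 3.64 on DSS. Flox DSS replicates 1 and 2 were far below every water mouse, and replicate 4, the array of lowest intensity, was within the water range. The difference of -1.49 (SE 0.43), to 0.36 of the water level, was called (limma, adjusted p = 0.0136). It rested on the low mice, since without Flox DSS replicate 1 it was -1.14 (adjusted p = 0.119), without replicate 2 it was -1.15 (adjusted p = 0.110) and without replicate 4 it was -2.19 (adjusted p = 0.000551). Within slides the Flox differences were -2.33, -1.78 and -0.28. In GR iKO mice Il18 was at 3.18, 3.75, 3.78 and 4.11 on water and at 3.34, 3.05 and 2.66 on DSS, a difference of -0.69 (95% interval -1.63 to 0.25, adjusted p = 0.233) with overlapping mice. The responses of the genotypes differed by 0.80 (interaction, 95% interval -0.53 to 2.14, adjusted p = 0.586), so a difference between them was not shown. Under the spike-in scaling Il18 was called lower in both genotypes, by -3.85 in Flox and -1.65 in GR iKO colons (limma, adjusted p = 0.0228), and the responses differed by 2.20 (adjusted p = 0.0459). The medians of all probes under this scaling were -2.45, -0.98 and 1.43.

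Of the receptor genes, Il1r1 and Il1rl1 rose in both genotypes on the 75th percentile scale, the Flox changes turning below 0 under the spike-in scaling, and Il1rap was not called. Il1r1 (probe A_51_P271503), the signalling receptor, was between 0.28 and 0.48 in Flox mice on water and at 1.86, 1.63 and 1.65 on DSS, and between 0.25 and 0.56 in GR iKO mice on water and at 1.93, 2.15 and 1.39 on DSS. No DSS mouse overlapped a water mouse. It rose 2.58-fold in Flox (log2 change 1.37, SE 0.16, limma, adjusted p = 4.88e-05) and 2.69-fold in GR iKO colons (1.42, SE 0.16, adjusted p = 6.22e-05), although under the spike-in scaling the Flox change turned to -0.995, above the -2.45 of the median probe, and was called lower (adjusted p = 0.0242), and the GR iKO change fell to 0.46 and was not called (adjusted p = 0.323).

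Il1rl1 (probe A_51_P339793), the ST2 receptor of IL-33, was at -2.35, -1.54, -1.88 and -2.42 in Flox mice on water and at 0.38, 0.18 and -0.02 on DSS. In GR iKO mice it was at -1.72, -1.78, -1.94 and -2.94 on water and at 3.05, 1.96 and 2.52 on DSS. Each DSS group lay above both water groups, and the GR iKO mice on DSS lay above the Flox mice on DSS. The rise was 4.68-fold in Flox (log2 change 2.23, SE 0.45, limma, adjusted p = 0.00152) and 24.4-fold in GR iKO colons (4.61, SE 0.45, adjusted p = 2.10e-05), and under the spike-in scaling the Flox change was -0.14. A second probe, designed on another transcript of the gene, rose 3.53-fold and 9.80-fold. Another, dim probe rose 5.26-fold in GR iKO colons and differed by 0.95 (SE 0.80) on the log2 scale in Flox colons. This dim probe passed the filter only through GR iKO mice on DSS, so its changes with DSS are given without a test. Which form of ST2 each probe reads, membrane or soluble, could not be checked.

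Il1rap, the accessory protein of the IL-1 and IL-33 receptors, was not called by its brightest probe (A_52_P467814). It was between -2.65 and -2.44 in Flox mice on water and at -2.95, -3.07 and -3.00 on DSS, a difference of -0.43 (limma, adjusted p = 0.0604) without overlap. GR iKO mice ran from -2.70 to -2.33 on water and were at -2.58, -2.90 and -3.30 on DSS (difference -0.34, adjusted p = 0.145), with overlap. Another probe, on a different transcript, differed by -0.17 in Flox colons (adjusted p = 0.525) and rose by 0.61 in GR iKO colons (adjusted p = 0.0324), where its mice overlapped, so the probes of Il1rap disagree. Under the spike-in scaling the brightest probe was called lower in both genotypes, by -2.79 in Flox and -1.30 in GR iKO colons. The median of all probes was -2.45 and -0.98 there. The other 2 probes of the gene were not tested, being well above background on 1 and on 0 arrays.

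The inhibitors of the family are Il1r2, Il18bp and Il1rn. Il1r2 (probe A_51_P470079), the decoy receptor, was at -4.34, -3.86, -2.95 and -4.63 in Flox mice on water and at -0.78, -1.08 and -1.28 on DSS, and at -4.31, -3.73, -4.51 and -4.61 in GR iKO mice on water and at 1.85, -0.65 and 0.62 on DSS. DSS mice lay above water mice in both genotypes, with a wide spread in GR iKO mice on DSS. The rise was 7.46-fold in Flox (log2 change 2.90, SE 0.59, limma, adjusted p = 0.00176) and 29.8-fold in GR iKO colons (4.90, SE 0.59, adjusted p = 8.54e-05), and under the spike-in scaling the Flox change was 0.54 and no longer called. A second probe, not well above background on water, was at least 5.35-fold higher in Flox and at least 19.2-fold higher in GR iKO colons.

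Il18bp (probe A_52_P577384), the soluble inhibitor of IL-18, was at -2.23, -2.07, -2.04 and -1.63 in Flox mice on water and at 1.39, 0.99 and -0.14 on DSS. In GR iKO mice it was between -1.99 and -1.83 on water and at 1.56, 1.85 and 1.87 on DSS. Again no DSS mouse reached the water range, and Flox DSS replicate 4 was the lowest DSS mouse. Il18bp rose 6.70-fold in Flox (log2 change 2.74, SE 0.27, limma, adjusted p = 1.49e-05) and 12.8-fold in GR iKO colons (3.68, SE 0.27, adjusted p = 4.72e-06), the opposite direction to Il18 on the same Flox arrays. The Flox change was 0.38, and no longer called, under the spike-in scaling.

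Il1rn (probe A_52_P431159), the receptor antagonist, differed from the other inhibitors in Flox colons. It was at 1.64, 1.59, 1.63 and 1.53 in Flox mice on water and at 1.70, 1.18 and 1.77 on DSS, a difference of -0.05 (SE 0.22). The DSS mice straddled the narrow water range. In GR iKO mice it was at 1.47, 1.71, 1.47 and 1.53 on water and at 4.34, 3.06 and 3.75 on DSS. There it rose 4.51-fold (log2 change 2.17, SE 0.22), by 1.59 to 2.88 within slides. The changes in Flox and in GR iKO colons are given without a test, because each is part of the difference in response that the gene was known for. A second, dimmer probe gave -0.38 in Flox colons and a rise of 1.43 in GR iKO colons. Il1b was 44.9-fold higher on the same Flox arrays. The Flox difference of Il1rn was -2.41 under the spike-in scaling, near the -2.45 of the median probe.

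**Figure D2:**
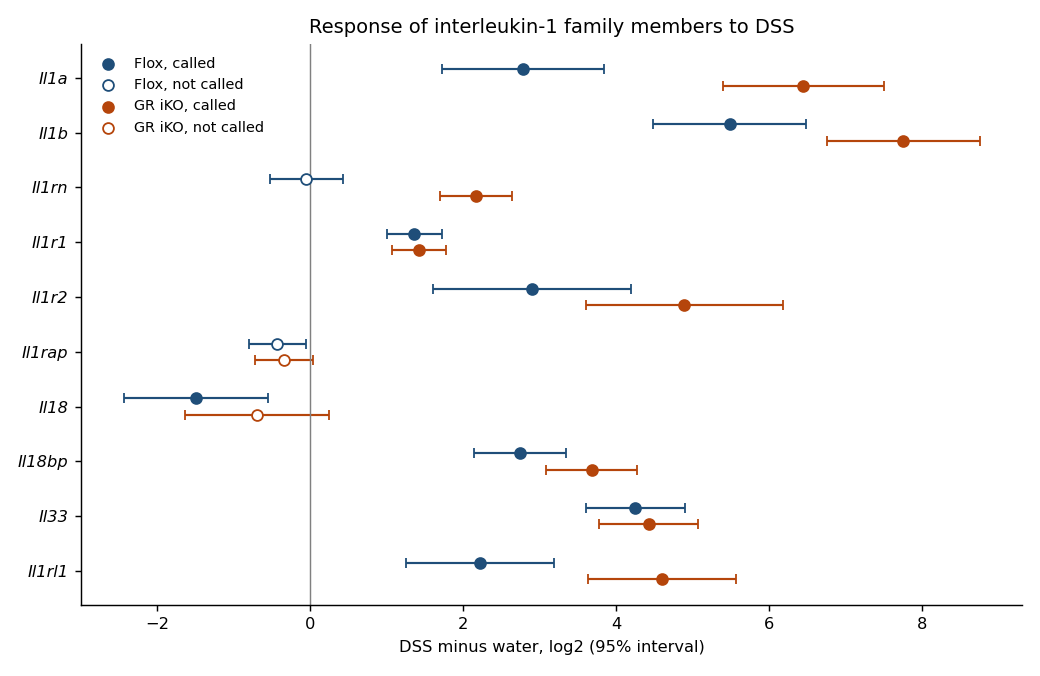
Change of each member with DSS (horizontal axis, log2 of DSS minus water, with 95% intervals) in Flox and GR iKO colons, with filled points for an adjusted p under 0.05 and open points for the rest. The fills of Il1a, Il1b and Il1rn are descriptions. Il1rn stands at -0.05 in Flox and 2.17 in GR iKO colons, Il33 and Il1r1 are close in both genotypes, and Il18 and Il1rap lie below 0; under the spike-in scaling the Flox changes of Il1r1 and Il1rl1 are also below 0, and the points of Il1a, not well above background on water, are not measured sizes.

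The comparison of genotypes on DSS asks whether loss of epithelial GR alters the family in colitis. Here 6 of the 10 members had all 3 GR iKO mice above all 3 Flox mice, namely Il1a, Il1b, Il1rn, Il1r2, Il18bp and Il1rl1, and none had the reverse, while 11.2% of all probes lay wholly higher and 11.6% wholly lower. The median difference was 1.33 over the members, Il1b and Il1rn included, and 0.03 over all probes. After adjustment over all probes none of the 8 members other than Il1b and Il1rn was called, beside 0.0203% of all probes called (6 probes), 0.0169% higher and 0.00339% lower. Il1rn passed as higher in this fit, which is given as a description. Il1rn did not pass with slide or replicate as a block, with the arrays of the 2 groups alone, under the spike-in scaling or in 11 of the 14 fits that left out 1 mouse; it passed without Flox DSS replicate 4, GR iKO control replicate 2 or GR iKO DSS replicate 3. Since Il1rn and Il1b were known from this contrast, nothing is read from these counts or from the median of the members. Of the other 8 members, 3, namely Il1a, Il1rl1 and Il18bp, had an unadjusted p under 0.05, beside 17.8% of all probes. All 10 differences were above 0 under the spike-in scaling, from 1.30 for Il1rap to 4.67 for Il1a, and none was called. The median of all probes was itself 1.25 there, so the shared sign is not particular to the members.

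The members that separated were ligands, inhibitors and Il1rl1, the gene of both forms of ST2. Il1rn was higher in GR iKO colons by 2.16 (SE 0.28), or 4.48-fold, and within the slides that held both genotypes on DSS by 1.35 and 1.98. Il1b was higher by 2.29 (SE 0.59), or 4.90-fold, and within slides by 0.75 and 3.38. Il1a differed by 3.44 (95% interval 2.09 to 4.80, limma, adjusted p = 0.0710), and by 1.55 when the background was corrected by normexp. Il1rl1 differed by 2.33 (1.09 to 3.57, adjusted p = 0.0906), and by 1.58 and 2.55 within slides. Its other probes gave 1.34 (0.69 to 1.99, limma, adjusted p = 0.0801) and, for the dim one, 1.62 (-0.60 to 3.84, adjusted p = 0.447). Il18bp differed by 1.01 (0.25 to 1.77, adjusted p = 0.169) and by 0.57 without Flox DSS replicate 4, which had its lowest DSS level. Il1r2 differed by 1.65 (-0.0036 to 3.30, adjusted p = 0.282), with 0.12 on slide 1 and 1.89 on slide 4, and by 1.03 without GR iKO DSS replicate 1. A second, dimmer probe of Il1r2 differed by 1.89 (0.38 to 3.41, limma, adjusted p = 0.188). The second probes of Il1a, Il1rn and Il18bp differed by 2.91, 1.64 and 1.09.

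The other 4 members overlapped between genotypes on DSS. Il33 differed by 0.16 (95% interval -0.67 to 0.98, limma, adjusted p = 0.882) and Il1r1 by 0.11 (-0.35 to 0.57, adjusted p = 0.849). Il1rap differed by 0.08 (-0.41 to 0.56, adjusted p = 0.905). Il18 differed by 0.78 (-0.43 to 1.99, adjusted p = 0.511), with 1.53 on slide 1 and -0.97 on slide 4. The other tested probe of Il1rap, on a different transcript, was higher in each GR iKO mouse than in each Flox mouse on DSS, by 0.81 (0.25 to 1.38, adjusted p = 0.145), so the probes of this gene disagree here too. A p above the threshold does not show that the genotypes were alike for these genes. The signs of Il33, Il1r1 and Il1rap changed under some alternatives.

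**Figure D3:**
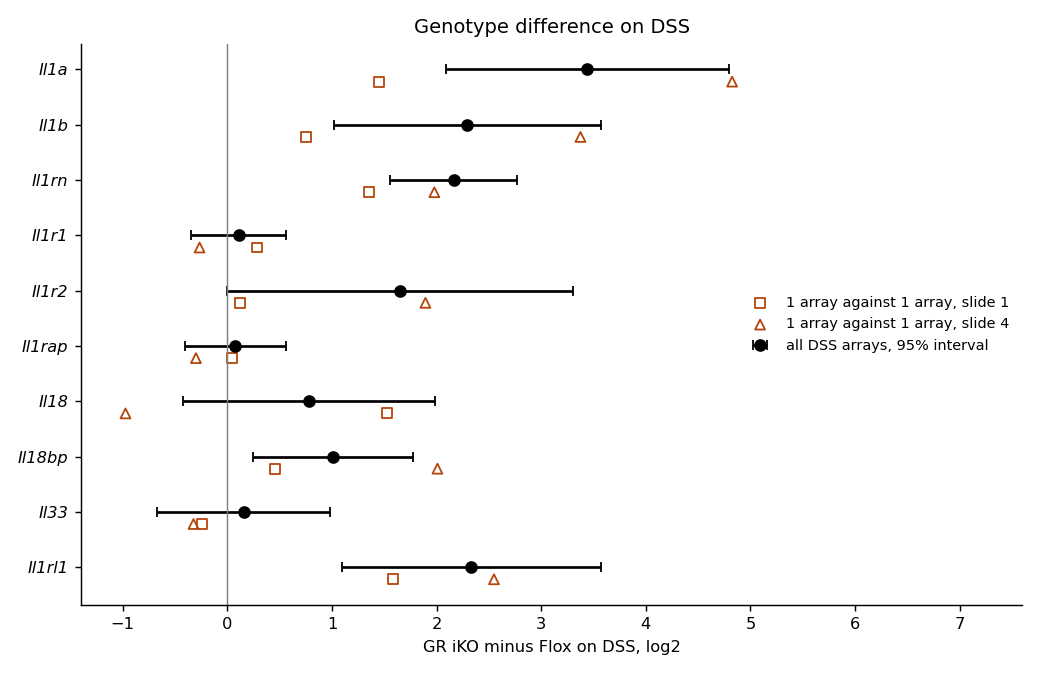
Difference between GR iKO and Flox colons on DSS for each member (horizontal axis, log2), with filled circles and 95% intervals for all DSS mice (n = 3 per genotype) and open symbols for the single GR iKO and Flox arrays that shared slide 1 or slide 4. Il1a, Il1b, Il1rn, Il1r2, Il18bp and Il1rl1 are above 0 on both slides, and Il18 is at 1.53 on slide 1 and -0.97 on slide 4.

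Whether the DSS response itself differed between genotypes was tested as an interaction. No member and 0% of all probes were called (limma), while 4389 probes had an unadjusted p under 0.05. Under the spike-in scaling 7 members, all but Il1r1, Il1rap and Il33, and 8656 probes were called, every probe in the direction of a higher value in GR iKO colons. This count of members includes Il1b and Il1rn and is a description. The difference of the responses was 2.38 for Il1rl1 (95% interval 1.01 to 3.75, adjusted p = 0.156) and 2.00 for Il1r2 (0.17 to 3.82, adjusted p = 0.296). For Il1a it is not given as a size, because Il1a was not well above background on water and both responses are bounds (adjusted p = 0.113). For Il1b the difference of responses was 2.27 (SE 0.65) and for Il1rn 2.22 (SE 0.31), given as descriptions. For Il33 it was 0.17 (-0.74 to 1.09, adjusted p = 0.895). These responses share no arrays between genotypes, but the comparisons within a genotype and between genotypes share theirs.

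Markers of cell types were measured on the same arrays, and their lists moved in differing directions. With DSS 21.8% of all probes were called higher and 25.4% lower in Flox colons, and 19.1% and 19.8% in GR iKO colons. Between genotypes on DSS 11.2% of all probes lay wholly higher and 11.6% wholly lower in GR iKO mice. The mean level of 7 neutrophil markers, S100a8 and S100a9 among them, ran from -6.68 to -5.10 in Flox and from -5.91 to -5.22 in GR iKO mice on water, from -1.85 to -0.93 in Flox mice on DSS and from -0.29 to 1.54 in GR iKO mice on DSS. Of these markers 5 rose with DSS in Flox and 7 in GR iKO colons, and all 7 were higher in each GR iKO mouse than in each Flox mouse on DSS, although none was called between genotypes. Of the macrophage and monocyte list (8 markers), 4 rose with DSS in Flox and 6 in GR iKO colons. The list overlapped between genotypes on DSS, from 0.41 to 1.11 in Flox and from 0.89 to 1.85 in GR iKO mice. Of 5 smooth muscle markers, 4 rose with DSS in Flox and none in GR iKO colons. All 5 were lower in each GR iKO mouse than in each Flox mouse on DSS, and none was called between genotypes. The list means there ran from 4.86 to 6.07 against 6.57 to 7.29 in Flox mice. On DSS the mean of 6 fibroblast markers was lower in every GR iKO mouse (4.38 to 4.63) than in every Flox mouse (4.64 to 4.99). The fibroblast list rose with DSS for all 6 markers in each genotype, the endothelial list (5 markers) for 2 in Flox and 1 in GR iKO colons, and the mast cell list (4 markers) for 1 in Flox colons and none in GR iKO colons, and none of these was called between genotypes. The T cell list (5 markers) ran from -4.43 to -3.81 in Flox and from -3.61 to -3.14 in GR iKO mice on DSS, without overlap. Of its markers 1 was by itself higher in each GR iKO mouse than in each Flox mouse. Of 6 B and plasma cell markers, 5 fell with DSS in Flox and 2 in GR iKO colons, and the list overlapped between genotypes, as did the epithelial list, from 5.39 to 6.21 and from 5.72 to 6.34. The part of these cell types in the levels of the members was not tested.

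**Figure D4:**
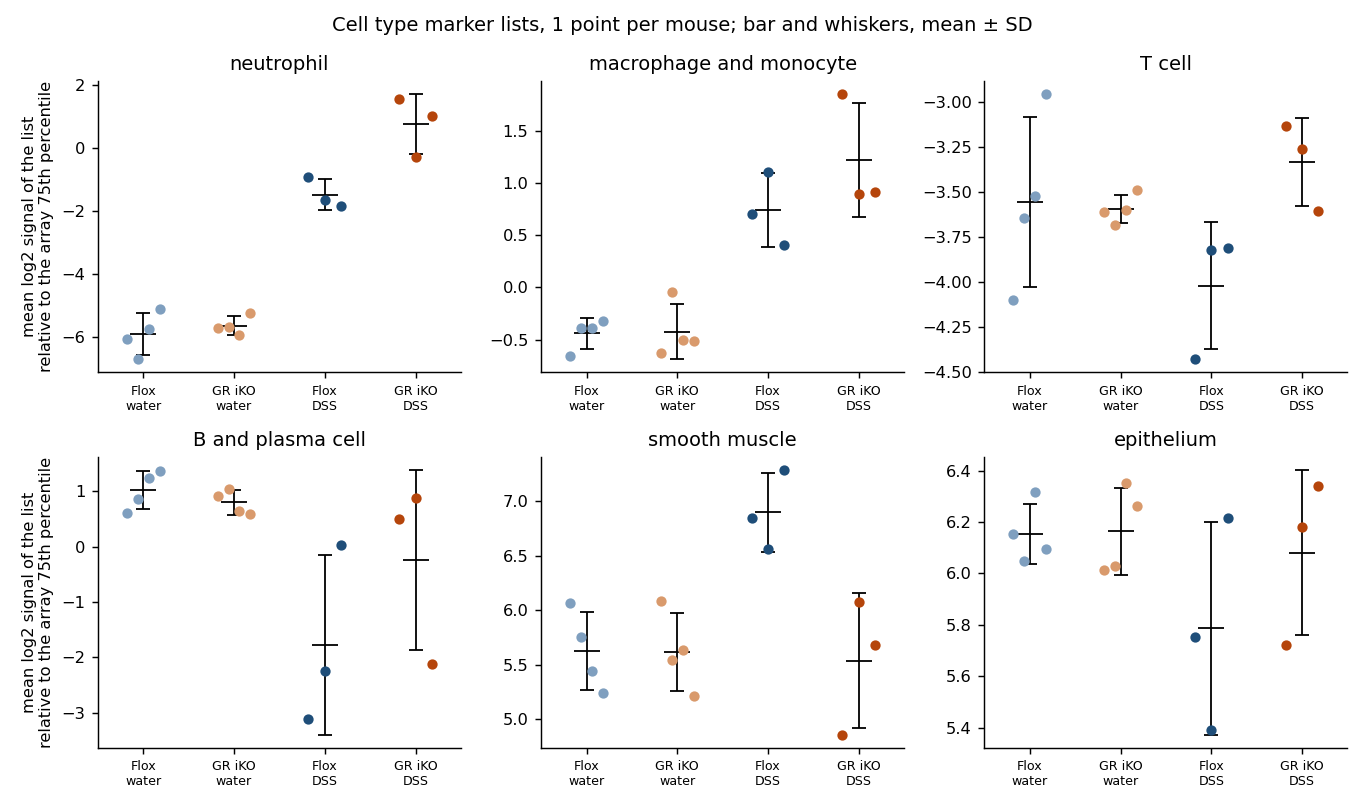
Mean level of the markers of 6 cell types (vertical axis, mean log2 signal over the 75th percentile of its array) in the 4 groups, with points for mice and bars for mean ± SD (n = 4 on water, n = 3 on DSS). On DSS the neutrophil and T cell lists are higher and the smooth muscle list lower in every GR iKO mouse than in any Flox mouse. The macrophage, B and plasma cell and epithelial lists overlap.

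The genes whose profiles over the 14 mice were most like those of 3 members were also recorded, among 15530 other genes and by the root mean square distance of log2 levels from the Flox mean on water. Nearest to Il1b were Acod1 (0.51), Prok2 (0.53) and Ccl3 (0.68), a chemokine of myeloid cells. Nearest to Il1rn were Cd14 (0.26), a receptor for bacterial lipopolysaccharide, Tnfaip3 (0.33), an inhibitor of NF-kB signalling, and Mcemp1 (0.34), and their changes with DSS were 0.13, 0.20 and 0.51 in Flox and 1.83, 1.71 and 1.95 in GR iKO colons. Nearest to Il18 were Slc1a1 (0.23), Aldh1l1 (0.23) and Prdx6 (0.26).

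Around the 10 members, 32 genes of the wider family, of signalling and of inflammasomes were read, 31 of them by a probe and 26 by a tested probe. In Flox colons 6 were called higher and 4 lower on DSS, with a median change of 0.16, where 21.8% of all probes were called higher and 25.4% lower. In GR iKO colons 13 were called higher and 2 lower, with a median of 0.46, where 19.1% of all probes were called higher and 19.8% lower. The same shares apply to the counts by role. These changes are relative to the 75th percentile, and the spike-in scaling was not run for these genes. None was called between genotypes under either condition or in the interaction, with medians of -0.02 on water and 0.34 on DSS.

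The other family genes rose where they were called. Il36g, a ligand of the IL-36 branch known from epithelia, was not well above background on water. On DSS it ran from -5.88 to -4.46 in Flox and from -4.66 to -1.90 in GR iKO mice. It was at least 1.57-fold higher in Flox and at least 7.97-fold higher in GR iKO colons. Il18rap, a chain of the IL-18 receptor that is the neighbour of Il18r1, was at least 1.78-fold and 3.65-fold higher. Il36g and Il18rap passed the filter only through DSS arrays, so these changes are given without a test. Counts of called genes that include them are descriptions. Of the other receptor genes of the chromosome 1 run, Il1r2, Il1r1 and Il1rl1 were called higher on DSS in both genotypes. Il18r1 was called in GR iKO colons (2.47-fold, limma, adjusted p = 0.0362) and not in Flox colons (2.07-fold, adjusted p = 0.0714). Its responses differed by 0.25 (interaction, 95% interval -1.13 to 1.63, limma, adjusted p = 0.900), so a difference between genotypes was not shown. The dim Il1rl2 was called in neither.

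Of 12 signalling genes, 3 rose and 2 fell in Flox colons, near the shares of all probes, and 7 rose and 1 fell in GR iKO colons. Myd88, the adaptor shared by these receptors, rose by 1.10 (SE 0.15, limma, adjusted p = 0.000134) in Flox and by 1.39 (SE 0.15, adjusted p = 4.68e-05) in GR iKO colons. Tab1, a partner of the kinase TAK1, fell by 0.64 (adjusted p = 0.0174) and 0.75 (adjusted p = 0.00952).

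Of 7 tested inflammasome genes, 1 rose and 2 fell in Flox colons, again near the shares of all probes, and 3 rose and 1 fell in GR iKO colons. Casp1, the protease that cleaves the IL-1β and IL-18 precursors, was at 4.48, 4.24, 4.63 and 4.64 in Flox mice on water and at 3.32, 3.28 and 3.83 on DSS. All Flox mice on DSS were below those on water, and Casp1 fell by 1.02 (SE 0.22, limma, adjusted p = 0.00273). In GR iKO colons it fell by 0.67 (adjusted p = 0.0328), with overlap. Nlrc4, a sensor of bacterial flagellin and secretion systems, fell by 0.61 (SE 0.14, adjusted p = 0.00371) in Flox and rose by 0.39 (SE 0.14, adjusted p = 0.0442) in GR iKO colons. Neither of the 2 tested neutrophil proteases, which can also cleave the precursors, was called.

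**Figure D5:**
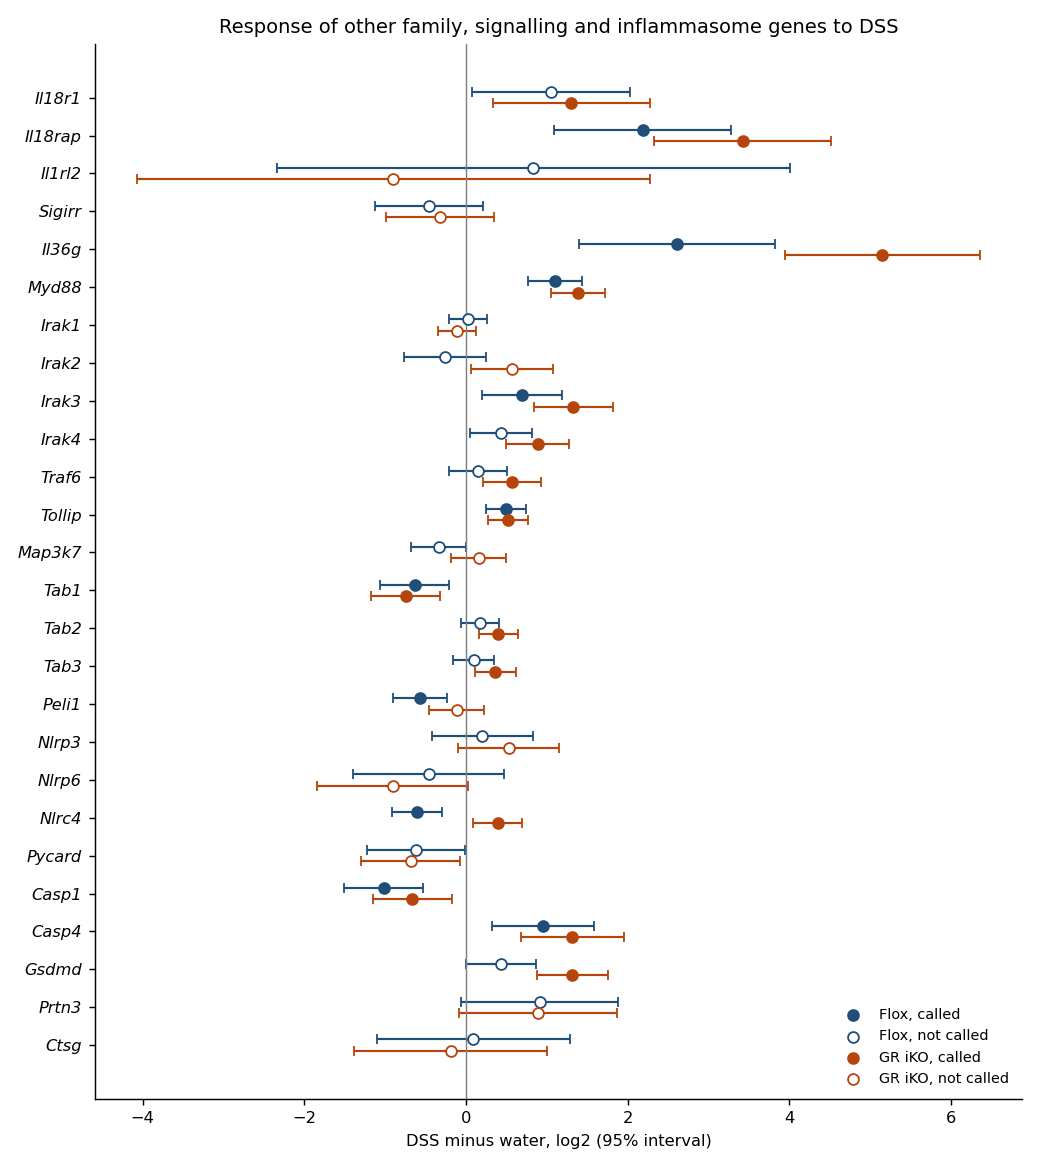
Change with DSS (horizontal axis, log2 of DSS minus water, with 95% intervals) of the 26 tested genes around the members, in Flox and GR iKO colons, with filled points for an adjusted p under 0.05. Il36g and Il18rap were not well above background on water, so their points are not measured sizes and their fills are descriptions. Nlrc4 is at -0.61 in Flox and 0.39 in GR iKO colons.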

How the data were processed

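Total RNA (500 ng per colon) was hybridised with 1 dye (Cy3) to whole mouse genome arrays of Agilent, with 1 mouse on each. Spots were read by the authors in Feature Extraction 12.0.0.7 (Agilent). Its deposited processed intensity is linear and above 0 at every spot, although the background-subtracted signal reaches -16.0, so changes of dim probes are compressed. The processing notes also name Partek 6.6, and the array grid was drawn on mm9. A deposited table of log2 values was an alternative. Its arrays share the same quartiles, as after quantile normalization, and the steps behind it are not given in the sources used here. It correlated at 0.999 or more with the log2 processed intensity of each array.

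From these intensities, flagged and 1639 control spots were left out, spots of a probe were averaged, and log2 values were set relative to the 75th percentile of each array. Probes well above background on at least 3 of 14 arrays were tested (29523 of 41174), of which 97 lacked a value on some array. No spot was saturated. Accessions were matched to GRCm38.p6 gene symbols (28223 of 29245), and of several probes the brightest stood for a gene. The older symbols Il1f6, Il1f8, Il1f9 and Il1f5 were read as Il36a, Il36b, Il36g and Il36rn.

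Group means were fitted with limma 3.58.1 in R 4.3.3 over all arrays, with array weights estimated per treatment (1.69 on water, 0.497 on DSS), since the variance on DSS was larger (median ratio 3.11). Tests were two-sided, with Benjamini-Hochberg adjustment over all tested probes per comparison and calls at an adjusted p under 0.05. How the study tested its arrays was not given in the sources used here. The fit was tested on simulated data. A bound ("at least") sets the dim group at the lowest signal of a probe well above background on the array. Array numbers limit the precision of every value. The p-values rest on the spread between mice within groups, moderated over all tested probes, and do not separate group from slide position.

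Members, gene lists and tests were chosen with earlier results of these data known. The text names the members, the pathway genes with the largest called changes (up to 3 per comparison and direction), the 3 genes nearest in profile to Il1b, Il1rn and Il18, Nr3c1 and marker lists. Other pathway genes are given as counts. Il18r1 and Il1rl2 are named beyond this rule because they lie in the chromosome 1 run, and Epcam to Slc26a3 as the epithelial list. Normexp used the median spot signal, because the planned mean is not a column of the files. Replicate numbers were not used as pairs in the main fit. Deviations of same-numbered mice correlated from -0.08 to 0.31, which cannot show whether the numbers stand for pairs.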

Additional observations from a re-analysis of the deposited data

Results flagged for a closer look

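In the group of 4 GR iKO mice on water, Il1rap of replicate 2 (-2.33) lay apart from the others, with a gap of 0.861 of the group's range. In the 4 Flox mice on water, Il18 of replicate 2 (3.32) lay apart by 0.844 of the range. Both exceed the critical value of Dixon's test for 4 mice, and chance flags about 1 in 20 of the 20 groups that were looked at. Nlrc4 was flagged because its DSS response pointed in opposite directions in the genotypes: all Flox mice on DSS (-0.18, -0.62 and -0.27) were below those on water and all GR iKO mice on DSS (0.81, 0.65 and 0.56) were above those on water. The difference between the responses was 0.995 (95% interval 0.56 to 1.43), and the interaction test did not call it (limma, adjusted p = 0.131).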

How the results depend on the processing

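Of 27 settings, 14 of which left out 1 mouse each, none moved the number of members called with DSS in either genotype, or between genotypes on water, by over 1.5 times. The direction was less stable, since the spike-in scaling turned 7 higher and 1 lower in Flox colons into 2 higher and 4 lower. Between genotypes on DSS, where 1 member was called, 5 were called with a shared spread, 4 with weights per array, 2 with a trended robust prior, and 0 with the 2 groups alone, a slide block, a replicate block or the spike-in scaling. Leaving out 1 mouse gave 0 to 4, with 4 without GR iKO DSS replicate 3, 2 without Flox DSS replicate 4 and 0 in 11 of 14 cases. In the interaction, where none was called, 1 was called with a shared spread, normexp, quantile normalization, the deposited table or a trended robust prior, 4 with weights per array and 7 with the spike-in scaling, and leaving out 1 mouse gave 0 to 1. The replicate block called 0 in the interaction, and the 2-group fit could not be run there. The cause of these changes was not tested. Counts of members called include Il1b and Il1rn wherever these passed, so they are read as descriptions.

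The sign of some single values turned, and the cause was not tested. With DSS in Flox colons, Il1rap was 0.011 with normexp, and the spike-in scaling gave Il1r1 -0.995 and Il1rl1 -0.14. With DSS in GR iKO colons, the mean of probes gave Il1rap 0.13. On water, weights per array gave Il33 0.0089 and Il1rl1 0.0418, normexp gave Il1b -0.0067 and Il33 0.0045, quantile normalization gave Il1rap 0.00059, the deposited log2 values gave Il1rap 0.00088, the spike-in scaling gave Il1b -0.15, Il1r1 -0.12 and Il18bp -0.10, and the mean of probes gave Il1rap 0.013 and Il1rl1 0.0011. Between genotypes on DSS, weights per array gave Il1r1 -0.15, Il1rap -0.10 and Il33 -0.42, and normexp gave Il1rap -0.10. In the interaction, weights per array gave Il1r1 -0.21, Il1rap -0.0522 and Il33 -0.43, and normexp gave Il1rap -0.0698. Leaving out 1 mouse gave Il1rn -0.16 to 0.14 with DSS in Flox colons. On water it gave Il1b -0.21 to 0.21, Il18 -0.16 to 0.15, Il18bp -0.0080 to 0.19, Il33 -0.0600 to 0.0420, Il1rl1 -0.17 to 0.24, Il1rap -0.10 to 0.0359 and Il1r1 -0.0068 to 0.10. On DSS it gave Il33 -0.37 to 0.61, Il1rap -0.10 to 0.26 and Il1r1 -0.0547 to 0.33 between genotypes, and Il33 -0.35 to 0.63, Il1rap -0.0836 to 0.28 and Il1r1 -0.10 to 0.28 in the interaction. Dim probes, Il1a first among them, are limited by signal over background.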
